A study of Gallus gallus with 10 samples.

Results

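The 100 most abundant transcripts of the broiler kidney were followed through 10 kidneys. For each of 10 libraries the counts of a gene were scaled to the library total as CPM (counts per 1000000 counts). The 100 genes with the highest mean CPM over all libraries were taken as members out of 17108 genes in the table. ENSGALG00000024011 was left out of this ranking beforehand. It was also left out of the 100 highest genes of each library and of the ranks by TPM (a level per length, explained below). The members were chosen by their measured level (mean CPM), so their levels are given as a description and are not tested. The differences between diets were not used in the choice and were tested in a fit across all 12187 genes with enough counts, a filter that all 100 members passed with at least 2970 counts in every library.

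The kidney works against steep gradients of salt, glucose and phosphate, and its tubule cells take the energy for this transport mainly from mitochondria. The mitochondrial genome of vertebrates is small and encodes subunits of NADH dehydrogenase (the ND genes), cytochrome b (CYTB), cytochrome c oxidase (the COX genes) and ATP synthase (the ATP genes), together with ribosomal and transfer RNAs. Its genes lie in long shared transcripts that are cut into shorter RNAs.

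The birds were Ross 308 broiler chickens killed at 21 days post-hatch, after feeds with 0.8% Ca (3 birds), 1.0% Ca (4 birds) or 1.2% Ca (3 birds), and each kidney gave 1 library. In every diet the non-phytate phosphorus was held at the same level and phytase was added. The birds were picked for a body weight near the mean of their diet, so they do not show the full range of a flock. The sex of the birds is not given in the sources used here. Replicates are given here by the numbers of the labels, which are 1, 3 and 4 at 0.8% Ca. Total counts ran from 6176553 to 7857813 per library, with the fewest in replicate 1 at 0.8% Ca. By the column headers, lane 1 held every library of the 1.2% Ca diet with replicates 1 and 2 of the 1.0% Ca diet. Lane 2 held the other 5. The study's own list of reads per sample gives the same lanes, although its methods speak of 1 lane for the pooled libraries. Values within a lane or with lane as a covariate use these lanes. The 1.0% Ca diet alone had birds in both lanes, so fits with lane as a covariate take the lane difference from its 4 birds. They assume that this difference is the same on every diet. Levels of RNA in whole tissue do not tell fewer cells of a type apart from less RNA per cell.

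Of the members, 10 lie on the mitochondrial genome and 90 on nuclear sequence. The 10 mitochondrial members were named by matching their length and position along the mitochondrial chromosome to a gene table of a later assembly (GRCg7b). Lengths were equal for 7 of them and differed by up to 3 bases for the other 3. None of the identifiers in the count table occurs in that gene table (0 of 17108), so the 90 nuclear members are given by identifier, with no name or role, and kidney marker genes could not be checked. Coordinates below are those of the deposited table (Galgal4).

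The members together held 19.8% to 22.2% of all counts of a library. Their mean share ± SD was 21.3 ± 0.621% over the 3 birds at 0.8% Ca, 20.8 ± 0.945% over the 4 birds at 1.0% Ca and 20.8 ± 0.941% over the 3 birds at 1.2% Ca. The ranges of the diets overlapped. The 10 highest members alone held 6.18% to 7.84% of the counts of a library.

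The same gene was highest in all 10 kidneys. ENSGALG00000028520 lies on chromosome 3 (chr3:14928612-14932913), has 3 exon blocks (stretches of merged exons) and took 1.42% to 2.38% of the counts. It stood at 23827, 21617 and 23125 CPM in replicates 1, 3 and 4 at 0.8% Ca, at 21296, 19449, 18385 and 14242 CPM in replicates 1 to 4 at 1.0% Ca, and at 20129, 14608 and 17447 CPM in replicates 1 to 3 at 1.2% Ca. By CPM the birds at 0.8% Ca were above every bird of the other diets, and replicate 4 at 1.0% Ca was the lowest of the 10. With the scaling of the fit (TMM) the 0.8 and 1.0% Ca birds overlapped for this gene. Its exons share 115 bases with another gene on the same strand, where fragments of the genes cannot be told apart.

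COX1, the catalytic subunit of cytochrome c oxidase, was next at 9469.8 ± 836.8 CPM (SD, n = 10). ENSGALG00000026604 followed at 8883.1 ± 2030.7 CPM and lies on an unplaced scaffold (AADN03010833.1, bases 3615 to 7013). ENSGALG00000016841 on chromosome 1, with 52 exon blocks, stood at 6850.6 ± 725.8 CPM. The remaining 6 of the 10 highest members had means from 3456 to 5765 CPM. They were ENSGALG00000015917, ENSGALG00000010005, COX3 (another subunit of cytochrome c oxidase), ENSGALG00000009621, ENSGALG00000026742 and ENSGALG00000002503. The spread between birds differed among the 10, from a coefficient of variation (CV) of 7.44% for ENSGALG00000015917 to 29.5% for ENSGALG00000002503.

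**Figure D1:**
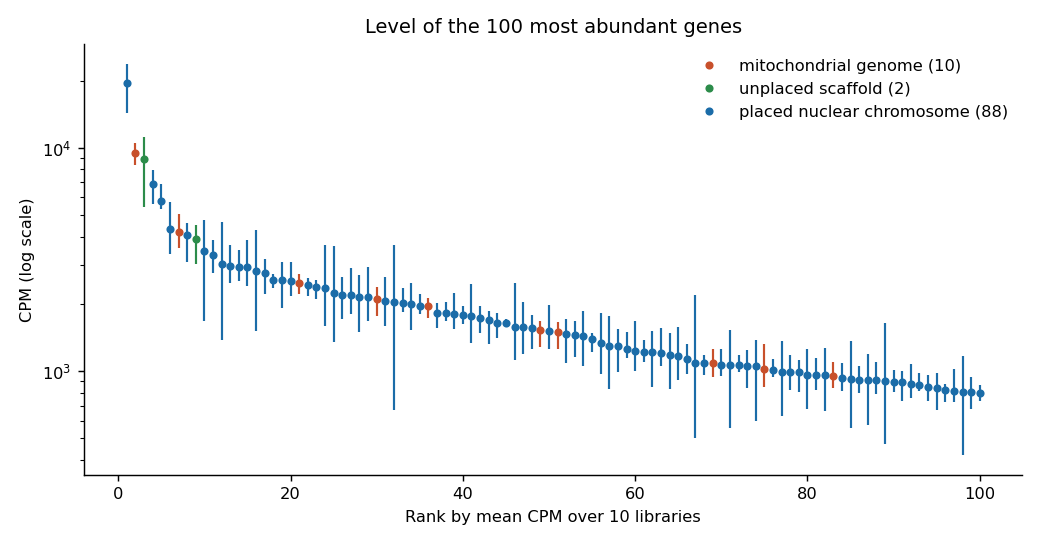
Level of each member (CPM, log scale) against its rank by mean CPM. Points are means over 10 libraries, lines run from the lowest to the highest library, and colours mark the 10 mitochondrial members, the 2 on unplaced scaffolds and the others. Means fall from 19413 CPM to 795 CPM, and the longest line is that of ENSGALG00000028273 at rank 32.

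Levels fell steeply over the first ranks and slowly afterwards, so the list ends without a gap. The last members inside were ENSGALG00000026858 at 806.5, ENSGALG00000027035 at 803.9 and ENSGALG00000009842 at 795.0 CPM. The first genes outside were ENSGALG00000014106 at 790.2, ENSGALG00000005922 at 778.1 and ENSGALG00000014450 at 773.8 CPM. Membership varied from bird to bird, and not only near this edge. For example, ENSGALG00000028273 at rank 32 was at 669 CPM in replicate 3 at 0.8% Ca, below the mean of the last member. Of the 100 members, 76 were among the 100 highest genes of every single library and 97 among the 200 highest of every library. The 100 highest genes of any library made up 136 genes in all.

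A count grows with the length of a transcript, so levels of different genes were compared per length, as TPM (a level per base of exon, scaled to the same total in each library and computed here from the exonic lengths in the table). Ranked by TPM, 51 of the members stayed among the 100 highest genes and 49 did not. The 49 that dropped out had a median exonic length of 4594 bases, the 51 that stayed had 1678 bases, and the 49 genes that took their place had 558 bases. Of the 20 members with at least 30 exon blocks, 2 stayed. On the TPM scale ENSGALG00000028520 remained first of the 10 highest members with 14548 ± 2372 TPM (SD, n = 10), but COX1 at 12704 ± 1082 TPM was above it in 3 of 10 birds, so the order of this pair was not the same in every kidney. COX3 at 11160 ± 1087 TPM was below COX1 in all 10 birds. ENSGALG00000026742, ENSGALG00000026604 and ENSGALG00000015917, at 7873, 7614 and 7108 TPM, changed places from bird to bird.

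The mitochondrial members comprised 9 of the 13 protein genes of the mitochondrial genome and the larger of its 2 ribosomal RNA genes. Together they held 2.35% to 2.84% of the counts of a library. Per length they followed an order by enzyme complex that was nearly the same in every kidney. COX1, COX3 and COX2, all of cytochrome c oxidase, were highest, and COX2 had 7512 ± 596 TPM (SD, n = 10). ATP6, a subunit of the proton channel of ATP synthase, came next with 5914 ± 486 TPM. CYTB, the electron carrier of the cytochrome bc complex, had 3838 ± 384 TPM. Each of these 5 genes was above the next in all 10 birds.

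The 4 members of NADH dehydrogenase, the entry point of electrons from NADH, were lower. ND1 had 2304 ± 220 TPM, ND4 had 2245 ± 199 TPM, ND2 had 1901 ± 202 TPM and ND5 had 1736 ± 143 TPM (SD, n = 10). ND1 was above ND4 in only 6 of 10 birds, so these neighbours did not differ beyond their spread, and ND2 was above ND5 in 9. The 3 COX genes summed to 27676 to 34250 TPM in a bird and the 4 ND members to 7254 to 9195 TPM. The larger ribosomal RNA, a part of the mitochondrial ribosome, was the lowest mitochondrial member at 1314 ± 182 TPM, in libraries described as made from mRNA.

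The other mitochondrial protein genes missed the list by counts but not by length. ATP8, another subunit of ATP synthase and a short gene, ranked 212th by CPM (487.4 CPM) and 11th by TPM (6134 TPM). Its TPM rests on a length of 165 bases, without correction for the length of fragments, and it shares 10 bases with ATP6. The TPM of so short a gene is therefore uncertain. ND4 shares 7 bases with ND4L, and ATP6 shares 1 with COX3. The part of these overlaps in the order of levels was not tested. ND3, ND6 and ND4L ranked 569th, 389th and 1176th by CPM and 66th, 78th and 93rd by TPM. The smaller ribosomal RNA was 199th by CPM and 108th by TPM.

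**Figure D2:**
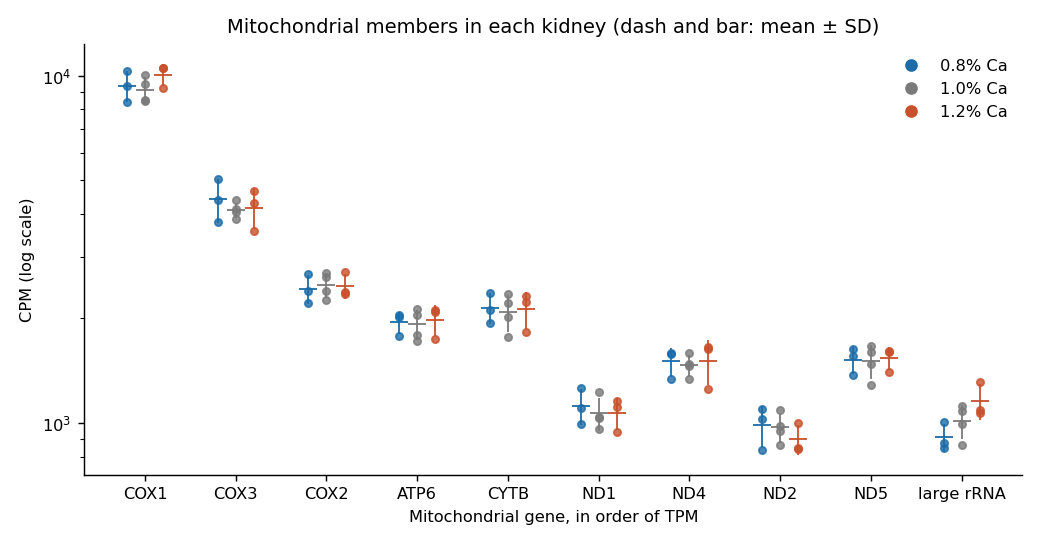
CPM (log scale) of the 10 mitochondrial members in each kidney, ordered by TPM from left to right. Points are birds coloured by diet and dashes with bars are the mean ± SD of 3 or 4 birds. The diets overlap for 9 of the genes, and for the larger ribosomal RNA (rightmost) the 3 birds at 1.2% Ca lie above the 3 at 0.8% Ca.

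The mitochondrial members varied little and partly together. Their CV between birds ran from 7.80% to 13.97% (median 9.72%), and the highest bird was at most 1.55 times the lowest. Over the 45 pairs of these genes, the correlation of log2 CPM across the 10 birds had a median of 0.65 (range -0.06 to 0.92), and over all 4950 pairs of members the median was 0.10. These values are descriptions, since the genes share libraries and, within the mitochondrial genome, transcripts.

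Among all members the spread between birds was moderate. The median CV was 11.6% for the members, 10.8% for the next 400 genes by level and 15.7% for all tested genes. A CV of at least 20% was found for 21 members, or 21%, against 12.8% of the next 400 genes and 37.2% of all tested genes. The highest bird was over 2-fold above the lowest for 17 members, for 10% of the next 400 genes and for 32% of all tested genes.

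The widest spread was that of ENSGALG00000028273 on chromosome 1 (chr1:193723743-193726040), with a CV of 54.4%. It stood at 3549, 669 and 1425 CPM at 0.8% Ca, at 1035, 1155, 3678 and 2870 CPM at 1.0% Ca, and at 1983, 2830 and 1186 CPM at 1.2% Ca, in the order of the replicate numbers. High and low birds occurred on every diet, and the diets overlapped. ENSGALG00000007220 on chromosome 5, with a CV of 33.4%, stood at 3643, 2055 and 2005 CPM at 0.8% Ca, at 1574, 1710, 3386 and 2101 CPM at 1.0% Ca, and at 1344, 2410 and 2056 CPM at 1.2% Ca. Replicate 1 at 0.8% Ca and replicate 3 at 1.0% Ca were the highest pair of birds for both of these genes.

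ENSGALG00000009641 on chromosome 2 had a CV of 40.5% that came mainly from 1 high bird. It stood at 502, 941 and 1119 CPM at 0.8% Ca, at 968, 937, 1132 and 2184 CPM at 1.0% Ca, and at 1348, 904 and 869 CPM at 1.2% Ca. ENSGALG00000011715 on chromosome 5, with a single exon block and a CV of 39.8%, stood at 842, 819 and 566 CPM at 0.8% Ca, at 1647, 470, 1200 and 657 CPM at 1.0% Ca, and at 1269, 804 and 788 CPM at 1.2% Ca. Both its highest and its lowest bird were on the same diet, 1.0% Ca. At the other end, ENSGALG00000001250 on chromosome 24 kept between 1590 and 1714 CPM in all 10 birds (CV 2.40%), followed by ENSGALG00000008156 (4.31%) and ENSGALG00000027058 (5.38%).

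**Figure D3:**
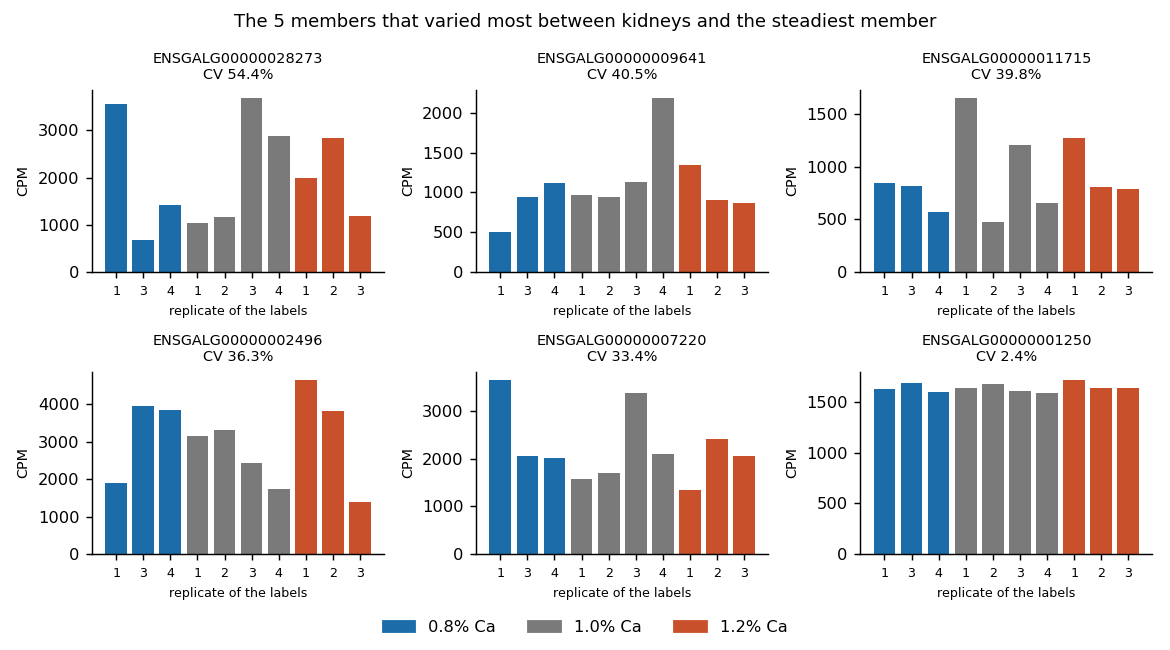
CPM of the 5 members with the largest CV and of ENSGALG00000001250, which has the smallest, with 1 bar per kidney coloured by diet and numbered by replicate. For the 5 variable members high and low birds occur within a diet, for example from 669 to 3549 CPM at 0.8% Ca for ENSGALG00000028273, whereas ENSGALG00000001250 stays between 1590 and 1714 CPM.

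The kidneys were unequally often at the edge of the range of a member. Replicate 1 at 0.8% Ca, which had the fewest counts, was the lowest of the 10 birds for 30 members, against 19.3% of all tested genes. Replicate 3 at 1.0% Ca was lowest for 16 members, near its 14.8% of all tested genes. Replicate 3 at 1.2% Ca, which had the most counts, was the highest for 21 members, against 8.94% of all tested genes. Replicates 4 and 1 at 1.0% Ca were highest for 15 and 13 members, against 6.58% and 7.16% of all tested genes. These libraries had 7461321 and 6214978 counts, the latter near the fewest. The part of depth in this was not tested.

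Members were unevenly spread over the chromosomes. Chromosome 1 held 23 members and 13.3% of the tested genes, and chromosome 7 held 8 members and 3.27% of the tested genes. In 5 cases a nuclear member was directly followed by another member along a chromosome. The levels of these neighbours were compared across the 10 birds by permutation tests, with p-values adjusted over the 5 pairs. The median r over all 4950 pairs of members was 0.10. Members that are not neighbours were not tested in this way, so a high r is not shown to be particular to neighbours. For example, ENSGALG00000002552 and ENSGALG00000006126 lie apart on chromosome 7. Both were lowest in replicate 1 at 0.8% Ca and highest in replicate 4 at 1.0% Ca. A correlation within diets or within lanes is that left after the means of the 3 diets or of the 2 lanes were removed.

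On chromosome 6, ENSGALG00000002496 (chr6:3953643-3956579) and ENSGALG00000002503 (chr6:3961091-3967496) lie 4511 bases apart on the same strand. ENSGALG00000002496 stood at 1897, 3949 and 3854 CPM at 0.8% Ca, at 3152, 3295, 2431 and 1745 CPM at 1.0% Ca, and at 4630, 3823 and 1384 CPM at 1.2% Ca. ENSGALG00000002503 stood at 2904, 4745 and 4530 CPM at 0.8% Ca, at 3893, 3583, 2932 and 2158 CPM at 1.0% Ca, and at 4328, 3813 and 1675 CPM at 1.2% Ca. Both genes were lowest in replicate 3 at 1.2% Ca, and the diets overlapped. Pearson's r was 0.95 (adjusted permutation p = 7.5e-05) and Spearman's rho was 0.93 (adjusted permutation p = 0.00155). Without the 2 birds farthest from the median r was 0.90, and it was 0.99 within diets and 0.97 within lanes.

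On chromosome 1, ENSGALG00000016841 (chr1:138136838-138247249) and ENSGALG00000016843 (chr1:138247624-138387983) start 374 bases apart on opposite strands, with 52 and 47 exon blocks. They had an r of 0.96 (adjusted permutation p = 7.5e-05) and a rho of 0.92 (adjusted permutation p = 0.00155). The r was 0.90 without the 2 farthest birds, 0.95 within diets and 0.95 within lanes. Both were lowest in replicate 1 at 0.8% Ca, with 5583 and 2206 CPM, and highest in replicate 1 at 1.0% Ca, with 7947 and 3180 CPM.

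The 2 pairs on chromosome 7 had different strength. ENSGALG00000005974 and ENSGALG00000006126, 20262 bases apart on the same strand, had an r of 0.98 (adjusted permutation p = 0.000167) and a rho of 0.88 (adjusted permutation p = 0.0027), and r was 0.96 without the 2 farthest birds and 0.98 within lanes. ENSGALG00000002509 and ENSGALG00000002552, 14283 bases apart on opposite strands, had an r of 0.86 (adjusted permutation p = 0.0015) and a rho of 0.67 (adjusted permutation p = 0.0481). Within lanes this r was 0.88 and without the 2 farthest birds 0.58, so this relation rested partly on those birds. The highest member, ENSGALG00000028520, and its neighbour ENSGALG00000008667, 32848 bases away, had an r of -0.22 (adjusted permutation p = 0.542, -0.10 within lanes) and a rho of -0.14 (adjusted permutation p = 0.708).

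**Figure D4:**
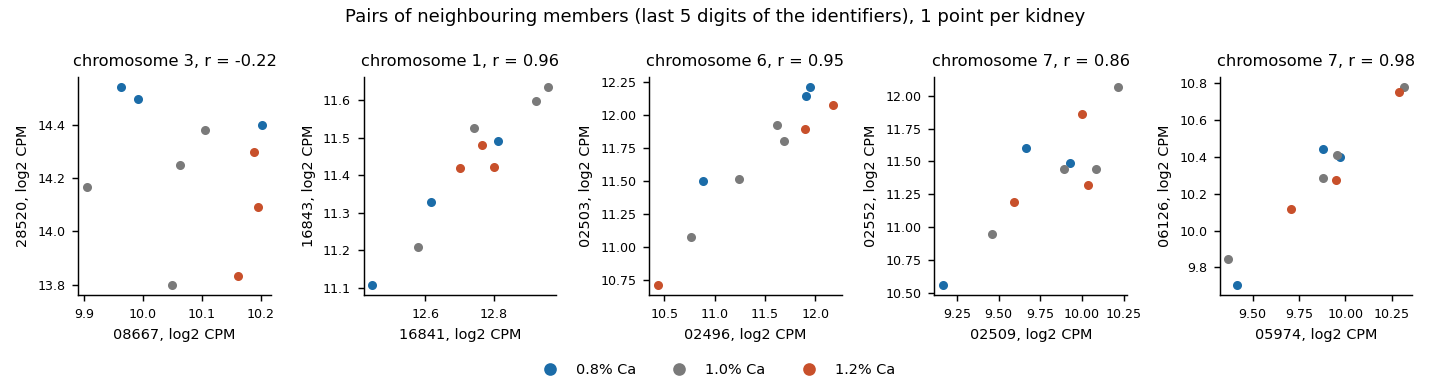
log2 CPM of 5 pairs of neighbouring members, with 1 point per kidney coloured by diet. Points rise along a line for the pairs on chromosomes 1, 6 and 7 (r from 0.86 to 0.98) and scatter for the pair on chromosome 3 (r = -0.22).

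The members had somewhat longer exonic sequence than other expressed genes. Their median exonic length was 2779.5 bases and that of all tested genes 2287 bases. At least 30 exon blocks were annotated for 20 members, against 5.88% of all tested genes. The longest were ENSGALG00000016289 (24381 bases in 108 exon blocks) and ENSGALG00000011811 (21073 bases in 117 exon blocks), and the shortest was ENSGALG00000002160 with 425 bases. Ranked by TPM instead, the 100 highest genes had a median exonic length of 882 bases, and 2 of them had at least 30 exon blocks.

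One question of the study, which also measured growth, was whether the Ca concentration of the diet changes kidney transcripts. The study reported differing genes with the program cuffdiff and with edgeR's likelihood ratio test, which are not the main test used here. None of the genes it lists from edgeR, some of which it also measured by quantitative PCR, is a member. The calls for members therefore do not bear on those genes. Among the members no change passed edgeR's quasi-likelihood test with Benjamini-Hochberg adjustment over all tested genes. It called 0 members and 0% of all tested genes in each of the 3 pairs of diets (adjusted p under 0.05) and along the slope on Ca (adjusted p under 0.1). At an unadjusted p under 0.05 there were 2 members between 0.8 and 1.0% Ca (8.48% of all tested genes), 5 between 0.8 and 1.2% Ca (8.82%), 0 between 1.0 and 1.2% Ca (3.68%) and 6 along the slope (9.02%). Both members found between 0.8 and 1.0% Ca were higher at 1.0% Ca (2.64% of all tested genes, with 5.84% lower). Between 0.8 and 1.2% Ca, 4 were higher at 1.2% Ca (3% of all tested genes) and 1 was lower (5.82%). Along the slope 5 were higher (3.26%) and 1 was lower (5.76%), and for all tested genes between 1.0 and 1.2% Ca the shares were 2.31% higher and 1.37% lower. Leaving out replicate 3 at 1.0% Ca gave 8 members between 0.8 and 1.0% Ca (9.49% of all tested genes). Leaving out replicate 1 at 0.8% Ca gave 1 along the slope (5.04%) and 0 between the 0.8 and 1.2% Ca birds (5.35%). edgeR's likelihood ratio test called 0 members in each comparison, where it called 0.181%, 0.156%, 0.0246% and 0.287% of all tested genes. DESeq2 called 1 member, between 0.8 and 1.0% Ca, with 0.254% of all tested genes called, and 0 in the others (0.345%, 0.0246% and 0.46% of all tested genes).

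Overlap between diets was counted here on CPM with the TMM scaling of the fit, not on the CPM printed for single birds. The values of a member did not overlap between the 0.8 and 1.0% Ca birds for 4 members, against 10.2% of all tested genes. Between 0.8 and 1.2% Ca this held for 11 members (15% of all tested genes) and between 1.0 and 1.2% Ca for 3 (4.64%). The comparisons share birds, so they do not count as separate evidence. The median log2 fold change of the members was 0.05, 0.04 and -0.01 in these pairs, and that of all tested genes was 0.01, 0.01 and 0.00. From 0.8 to 1.0% Ca, 63 members and 52.4% of all tested genes were on the higher side. From 0.8 to 1.2% Ca these were 63 members and 51.7%. Without replicate 1 at 0.8% Ca these pairs had 60 members (50.7% of all tested genes) and 54 members (53.3%). With lane as a covariate they had 55 members (50%) and 54 members (51.4%). From 0.8 to 1.2% Ca there were 66 members (51%) without replicate 2 at 1.2% Ca and 48 (51.1%) without its replicate 3. Between 1.0 and 1.2% Ca, 47 members and 49.5% of all tested genes were on the higher side. With upper-quartile scaling these were 57 members and 54.1%, and with total counts 55 members and 52.9%.

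The member that DESeq2 called was ENSGALG00000026742, a gene of 1 exon block on an unplaced scaffold (AADN03016580.1, bases 4875 to 5903). It stood at 3258, 3008 and 3773 CPM at 0.8% Ca, at 4429, 4074, 4503 and 4048 CPM at 1.0% Ca, and at 3861, 3931 and 4076 CPM at 1.2% Ca. All birds at 0.8% Ca were below all birds of the other diets. Its log2 fold change from 0.8 to 1.0% Ca was 0.37 with a standard error of 0.10 and an adjusted p of 0.395 in edgeR's quasi-likelihood test and the adjusted p was 0.038 in DESeq2. Over 22 fits the adjusted p ran from 0.038 to 0.827 and the log2 fold change from 0.29 to 0.46. Within lane 2 the log2 fold change was 0.38. From 0.8 to 1.2% Ca it was 0.24 with a standard error of 0.11 and an adjusted p of 0.559 in edgeR's quasi-likelihood test.

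The other member with an unadjusted p under 0.05 between 0.8 and 1.0% Ca was ENSGALG00000003580 on chromosome 11. It stood at 596, 993 and 995 CPM at 0.8% Ca, at 1178, 1184, 1026 and 1380 CPM at 1.0% Ca, and at 1127, 836 and 1209 CPM at 1.2% Ca. The birds at 0.8% Ca were below those at 1.0% Ca, with replicate 1 far below the rest. The log2 fold change was 0.49 with a standard error of 0.20 and an adjusted p of 0.539 in edgeR's quasi-likelihood test, and it was 0.29 without that bird. Its exons share 55 bases with a gene on the other strand, and strand was not used in counting. The largest fold change of a member in this comparison, 0.63 for ENSGALG00000009641, had an adjusted p of 0.642 in edgeR's quasi-likelihood test. Within lane 2 it was 0.99. Leaving out replicate 4 at 1.0% Ca gave 0.27, and leaving out the 0.8% Ca bird with number 1 gave 0.37. The 3 members with the smallest p among the negative changes were ENSGALG00000016152 (-0.31), ENSGALG00000028520 (-0.30) and ENSGALG00000028749 (-0.23). Within lane 2 ENSGALG00000016152 was at -0.12. ENSGALG00000028749 was at -0.13 or -0.15 when replicate 3 of the 0.8% or of the 1.0% Ca diet was left out.

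Between 0.8 and 1.2% Ca the smallest p of a member belonged to the larger mitochondrial ribosomal RNA (ENSGALG00000018384). How much ribosomal RNA is kept in libraries described as made from mRNA was not measured here. This RNA stood at 848, 875 and 1006 CPM at 0.8% Ca, at 1122, 1079, 861 and 994 CPM at 1.0% Ca, and at 1070, 1086 and 1316 CPM at 1.2% Ca. The 3 birds at 1.2% Ca were above the 3 at 0.8% Ca, and those at 1.0% Ca overlapped both. The log2 fold change was 0.35 with a standard error of 0.13 and an adjusted p of 0.471 in edgeR's quasi-likelihood test. No lane held both diets, and with lane as a covariate the value was 0.12. Within 1.0% Ca the 2 birds of lane 1 were above the 2 birds of lane 2, and lane and diet cannot be told apart between 0.8 and 1.2% Ca. Each of the 9 mitochondrial protein genes overlapped between all pairs of diets. Over all members, the contrast of lanes within 1.0% Ca had an unadjusted p under 0.05 for 8 members, 3 higher and 5 lower in lane 1, and for 7.41% of all tested genes.

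ENSGALG00000028520, the highest member, had a log2 fold change of -0.39 from 0.8 to 1.2% Ca with a standard error of 0.17 and an adjusted p of 0.554 in edgeR's quasi-likelihood test. With lane as a covariate it was -0.69, and without each bird in turn it lay between -0.51 and -0.27. From 0.8 to 1.0% Ca it was -0.30, with -0.46 within lane 2 and -0.20 without replicate 4 at 1.0% Ca. The mean ± SD was 22856 ± 1129 CPM in the 3 birds at 0.8% Ca, 18343 ± 2987 CPM in the 4 at 1.0% Ca and 17395 ± 2761 CPM in the 3 at 1.2% Ca, and the differences did not pass the test.

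ENSGALG00000012726 on chromosome 1 stood at 852, 1180 and 1088 CPM at 0.8% Ca, at 1239, 1325, 970 and 1380 CPM at 1.0% Ca, and at 1428, 1507 and 1153 CPM at 1.2% Ca. Its birds at 0.8 and 1.2% Ca overlapped through replicate 3 of both. The log2 fold change was 0.39 with a standard error of 0.16 and an adjusted p of 0.537 in edgeR's quasi-likelihood test and 0.29 with lane as a covariate. ENSGALG00000026604, at rank 3 by level, stood at 10518, 10555 and 10838 CPM at 0.8% Ca, at 11161, 7560, 8400 and 6716 CPM at 1.0% Ca, and at 10233, 7437 and 5414 CPM at 1.2% Ca. Its 3 birds at 0.8% Ca lay close together and the other diets spread below them, except for replicate 1 at 1.0% Ca. The change along the line from 0.8 to 1.2% Ca was -0.47 on the log2 scale with a standard error of 0.22 and an adjusted p of 0.572 in edgeR's quasi-likelihood test. With lane as a covariate it was -0.76, and leaving out replicate 1 or 3 of the 1.2% Ca diet gave -0.72 or -0.30. The lowest fold change from 0.8 to 1.2% Ca was that of ENSGALG00000002160 on chromosome 10, at -0.56, which was -0.02 with lane as a covariate, and ENSGALG00000006593 was at -0.23.

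Between 1.0 and 1.2% Ca the smallest p of a member belonged to ENSGALG00000010049 on chromosome 1. It stood at 1549, 1168 and 1180 CPM at 0.8% Ca, at 1360, 1495, 1320 and 1354 CPM at 1.0% Ca, and at 989, 1169 and 1346 CPM at 1.2% Ca. The birds at 1.2% Ca overlapped those at 1.0% Ca through their replicate 3. The log2 fold change was -0.26 with a standard error of 0.13 and an adjusted p of 0.961 in edgeR's quasi-likelihood test, and -0.16 without replicate 1 at 1.2% Ca. Among the positive changes the smallest p was that of ENSGALG00000009250 on chromosome 7. It stood at 732, 941 and 869 CPM at 0.8% Ca, at 893, 898, 816 and 855 CPM at 1.0% Ca, and at 1001, 981 and 963 CPM at 1.2% Ca. The birds at 1.2% Ca were above all others. The log2 fold change from 1.0 to 1.2% Ca was 0.17 and lay between 0.13 and 0.19 in all alternatives. The other members with the smallest p in either direction overlapped between these diets. ENSGALG00000016691 was at 0.18 and ENSGALG00000004769 at 0.19, which were 0.05 and 0.08 without replicate 3 at 1.2% Ca, and the latter was 0.12 without replicate 1 at 1.0% Ca and 0.33 with lane as a covariate. ENSGALG00000010005 was at -0.29 and ENSGALG00000012247 at -0.16, which were -0.43 and -0.06 with lane as a covariate. ENSGALG00000012247 shares 726 exonic bases with a gene on the other strand.

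**Figure D5:**
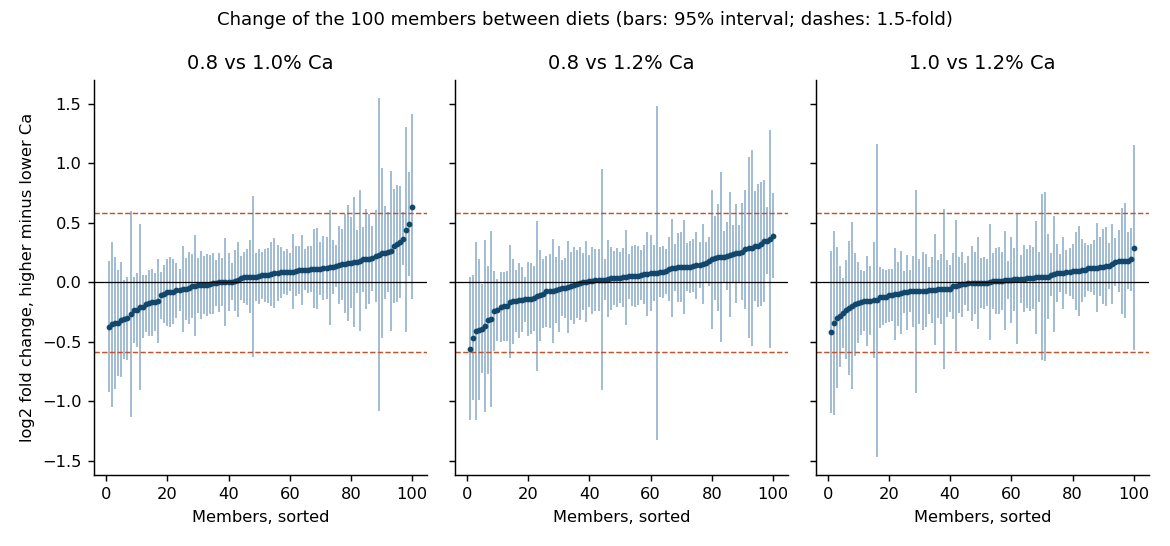
Log2 fold change (higher minus lower Ca) of each of the 100 members in the 3 pairs of diets, sorted within each panel. Points are edgeR estimates from the fit without lane, bars are 95% intervals and dashed lines mark 1.5-fold. Estimates run from -0.37 to 0.63, from -0.56 to 0.39 and from -0.42 to 0.29, and no member passed the adjusted threshold.

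In the fit without lane, most members had narrow intervals for the difference between the birds of a pair of diets. Lane and diet cannot be told apart between 0.8 and 1.2% Ca, so these intervals do not bound a change by diet alone. With lane as a covariate, ENSGALG00000028520 moved there from -0.39 to -0.69 and ENSGALG00000002160 from -0.56 to -0.02. The members were chosen for high counts, and the part of this in their narrower intervals was not tested. The 95% interval of the log2 fold change lay within 2-fold in both directions for 95, 92 and 96 members in the 3 pairs, against 80.2%, 78% and 81.7% of all tested genes. It lay within 1.5-fold for 72, 72 and 83 members, against 56%, 52.3% and 59.9% of all tested genes. The median standard error of the members was 0.12, 0.13 and 0.12, and that of all tested genes 0.16, 0.17 and 0.16.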

How the data were processed

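Kidney libraries of 10 broilers were compared. Read pairs were trimmed by the authors. HISAT2 2.0.4 was used to place them on Galgal4, and featureCounts 1.5.0-p3 gave fragments for the genes of Ensembl release 84, per the file headers. The deposited values are raw whole-number counts with no normalization, and the exonic length of each gene is given beside them. The counting set no strand option. The labels name a stranded kit, whereas the methods name another.

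CPM used total counts of the table. Counts of genes not overlapping between diets used CPM scaled by TMM. Differences were tested with edgeR 4.0.16 in R 4.3.3 (filterByExpr, TMM, quasi-likelihood test, two-sided, all 10 libraries), with p-values adjusted over 12187 genes and thresholds of 0.05 for pairs and 0.1 for the slope. The script was tested on simulated data. Other tests tried were DESeq2 1.42.0, limma-voom (version 3.58.1) and the likelihood ratio test. Other settings were RLE, upper-quartile and total-count scaling, no filter, a filter of 1 CPM in 3 libraries, a lane covariate, a block for the replicate number, each pair alone, another threshold and each library left out. Correlations used 100000 permutations. Python 3.11.15, pandas 2.3.3, SciPy 1.17.1 and Matplotlib 3.10.9 were used. Replicates are separate birds.

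The members and lists were chosen with earlier results of these data known. Genes named are the 10 highest members, the 3 on each side of the list's end and the 3 smallest p-values in each direction and comparison. Also named are the 5 largest and 3 smallest CV values, the mitochondrial protein and ribosomal RNA genes, neighbouring members and members with the longest or shortest exonic length. Lists of kidney cell markers and pathways were not used here, since identifiers could not be matched to symbols.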

Additional observations from a re-analysis of the deposited data

Results flagged for a closer look

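The 1.0% Ca group, with 4 birds, was the only one large enough to look for a bird far from the rest by Dixon's ratio of gap to range at its 95% critical value. Of 50 groups examined, 3 were flagged. The ratio flags about 1 in 20 groups by chance where groups are taken without regard to their values. That rate does not apply to genes named for their values, such as ENSGALG00000009641, which was named partly for its large CV. ENSGALG00000009641 was at 2184 CPM in replicate 4, against 937 to 1132 CPM in the other 3 birds. ENSGALG00000002160, the shortest member, was at 1274 CPM in replicate 3, against 705 to 802 CPM. ENSGALG00000027035, next to last in rank, was at 679.2 CPM in replicate 2, against 809.2 to 819.6 CPM.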

How the results depend on the processing

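The 24 fold changes of named members, picked for the smallest p in these data, kept their sign in all 498 alternatives. The alternatives used the same birds, so the kept sign is no separate evidence of a change. Sizes moved more: between 0.8 and 1.2% Ca, lane as a covariate took ENSGALG00000002160 from -0.56 to -0.02. It took ENSGALG00000018384 from 0.35 to 0.12. These values rest on the lane difference of the birds at 1.0% Ca, the only diet in both lanes. For ENSGALG00000002160 that difference, -0.54 in lane 1 against lane 2, included the flagged replicate 3. No alternative but DESeq2 called a member. It called 1 between 0.8 and 1.0% Ca, ENSGALG00000026742 with a log2 fold change of 0.38. At an unadjusted p under 0.05, lane as a covariate gave 5 members between 0.8 and 1.0% Ca (10.7% of all tested genes) and 2 between 1.0 and 1.2% Ca (3.5%). Between 0.8 and 1.2% Ca, DESeq2 gave 10 (8.43%) and upper-quartile factors gave 2 (8.43%), and along the slope DESeq2 gave 12 (8.98%). The replicate block gave 3, 2, 0 and 5 members in the 4 comparisons, against 5.91%, 5.97%, 2.96% and 6.52% of all tested genes. Libraries with the same number correlated between -0.41 and 0.32 in their deviations from the diet means. Those with different numbers correlated between -0.34 and 0.46, so no pairing by number was seen in these values. Leaving out each library gave 1 to 8, 0 to 6, 0 to 2 and 1 to 6 members, with 6.15% to 9.49%, 5.35% to 11%, 3.15% to 4.47% and 5.04% to 12.3% of all tested genes. Ranking by TPM kept 51 members, and leaving out a library kept 99 to 100. The 50 highest genes held a median of 15.7% of the counts and the 200 highest 27.2%, against 20.9% for the 100. The causes of these shifts were not tested. Lane and diet overlap, and each diet had 3 or 4 birds. Depth was at least 2970 counts for every member in every library.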
